A study of Ovis aries with 13 samples.

Results

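PPARA, PPARG and PPARGC1A are regulators of fuel use in the heart, and their transcripts were measured in the left ventricle of newborn lambs and of sheep fetuses close to term. PPARA and PPARG are nuclear receptors that bind fatty acids and their derivatives and switch on genes as partners of the retinoid X receptors. PPARA is known in heart muscle for genes of fatty acid uptake and oxidation, and PPARG is known above all as the receptor that drives the formation of fat cells. PPARGC1A is a coactivator that docks on these and other nuclear receptors and promotes the formation of mitochondria. The fetal heart lives mainly on glucose and lactate, and the heart turns to fatty acids as its main fuel after birth.

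The members were all non-control array probes whose gene name in the files was one of the 3, of 860 genes named on the array. This gave 5 of 15008 probes, namely 1 for PPARG, 1 for PPARA and 3 for PPARGC1A. Of these 5, 2 carry the current symbol, and 3 carry older spellings (PPAR ALPHA and pgc1) whose gene the files' own description column gives. The newborn group held 7 lambs sampled on the day of birth, labelled postnatal day 1 (4 females and 3 males), and the fetal group held 6 fetuses at gestational day 142 (2 females and 4 males). The labels name no treatment, strain or allele for either group, and the seventh fetus that the design text counts was not analysed here. Each animal had 1 Agilent single-colour array. Of the 13 animals, 9 share 4 animal numbers with others of their group, and the labels do not explain the number.

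The probes are strands of 60 bases, and their letters show which of them share bases. Probes a and b of PPARGC1A start at bases 692 and 724 of the same transcript record and share the 28 bases in capitals, so their values are not separate evidence, while probe c comes from another PPARGC1A record. The PPARA probe shares the 25 bases in capitals with an array probe to which the files give no gene name. In the PPARG probe and in probe c, the longest run shared with any other array probe was 13 bases.
PPARG: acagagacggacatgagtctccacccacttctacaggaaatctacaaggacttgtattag
PPARA: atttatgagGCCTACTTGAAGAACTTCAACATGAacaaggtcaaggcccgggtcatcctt
unnamed probe: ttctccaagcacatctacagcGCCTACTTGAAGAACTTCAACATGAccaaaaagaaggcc
PPARGC1A probe a: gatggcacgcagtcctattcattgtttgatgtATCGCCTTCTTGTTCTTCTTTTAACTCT
PPARGC1A probe b: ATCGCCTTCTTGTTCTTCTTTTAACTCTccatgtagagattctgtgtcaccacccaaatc
PPARGC1A probe c: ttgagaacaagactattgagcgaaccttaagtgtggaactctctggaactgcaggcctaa

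On each array between 9407 and 10713 probes were well above background, and the arrays' 75th percentiles of processed signal ranged over 219 to 367. Values below are relative signals, that is, a probe's processed signal divided by that 75th percentile, and differences are newborn minus fetal on the log2 scale. Newborn 6 stood apart from its group on the first principal component, with 36.8% of the variance, at -8.997. Newborn 1 came next, at 10.1. The other newborn arrays lay at 23.6 to 35.1 and the fetal arrays at -29.1 to -20.4. All 5 member probes were well above background on 13 of 13 arrays and saturated on 0.

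PPARG fell in newborn ventricles, and so did PPARGC1A by its probe c. PPARA and the other probes of PPARGC1A, its brightest probe a among them, had values below 0 that did not pass the test. The 2 passing probes of 5 compare with 11.1% of the 10255 tested probes that passed as lower in newborn ventricles, and 23.1% that passed in either direction, at an adjusted p under 0.05 in limma. All 5 had differences below 0, as had 46.5% of the tested probes. These 5 probes stand for 3 genes, with 3 of the probes for PPARGC1A, so they are not 5 separate findings. The median difference was -0.40 over the 5 probes and 0.03 over all tested probes. No member had every newborn array below every fetal array, a pattern found for 3.51% of 10139 probes with values throughout.

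PPARG had relative signals of 0.373 to 0.670, with a median of 0.429, in newborn ventricles, against 0.486 to 0.852, with a median of 0.700, in fetal ventricles. Of the newborn arrays, 5 of 7 lay at or below 0.436, under every fetal array, while newborn 1 (0.664) and newborn 6 (0.670) lay within the fetal range. Newborn 1 and newborn 6 were also the newborn arrays nearest the fetal arrays on the first principal component, at 10.1 and -8.997. Whether PPARG differed in them apart from that was not tested. In the fetal group, fetal 3 (0.486) and fetal 4 (0.600) lay below those 2 newborn arrays. On the log2 scale PPARG averaged -1.10 ± 0.36 in newborn ventricles (SD, n = 7) and -0.56 ± 0.29 in fetal ventricles (SD, n = 6). It fell by 31.1%, or fell by 0.54 on the log2 scale (SE 0.174, 95% confidence interval -0.91 to -0.17, limma adjusted p = 0.0386), and its exact two-sided permutation p, for this probe alone and unadjusted, was 0.0152.

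Without newborn 6 the PPARG difference was -0.62 (limma adjusted p = 0.0114), and without newborn 1 it was -0.62 (limma adjusted p = 0.0175). The call was lost when any 1 of fetal 1, 2, 5 and 6 or newborn 2, 3, 4, 5 and 7 was left out, with differences of -0.53 to -0.47 and limma adjusted p from 0.0664 to 0.0843. In the authors' deposited matrix the difference was smaller, at -0.32 (limma adjusted p = 0.0484). Lambs with a shared number could differ in PPARG: newborn 1 was 1.77 times newborn 7, whereas newborn 2, 4 and 5, with another shared number, lay within 1.06 times of each other. With the animal number as a random block neither PPARG (limma adjusted p = 0.0705) nor PPARGC1A probe c (limma adjusted p = 0.0637) passed.

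**Figure D1:**
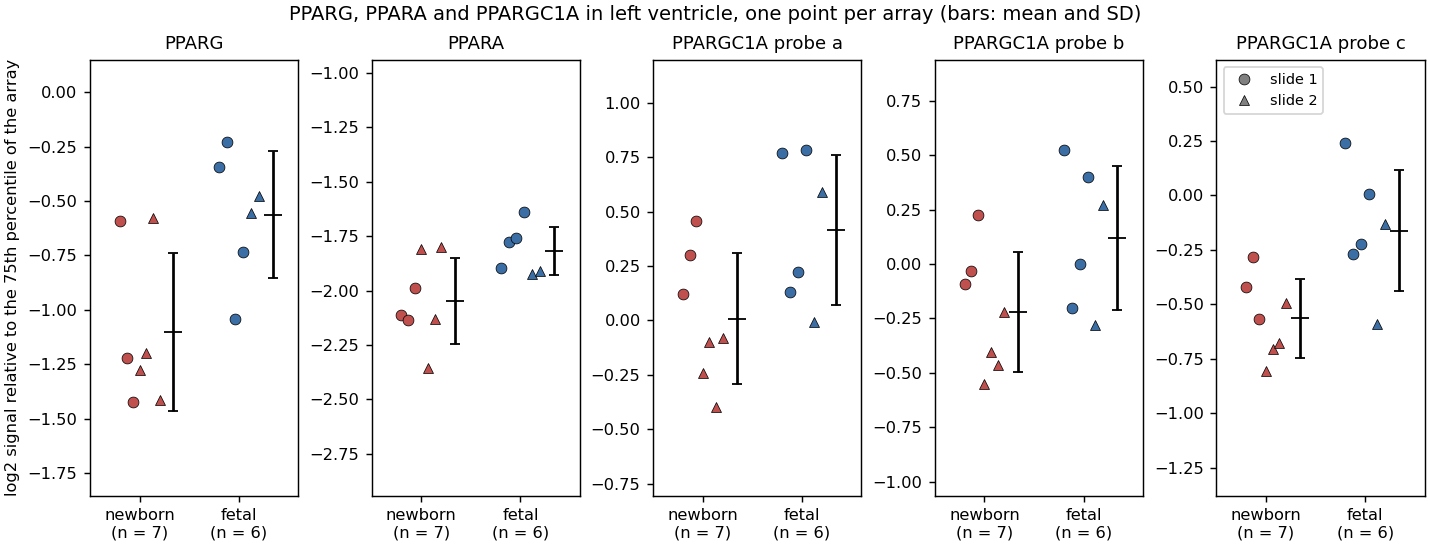
Log2 signal relative to the 75th percentile of the array for the 5 probes, with 1 point for each of the 7 newborn and 6 fetal arrays, and bars for the mean and SD. Each panel spans the same log2 range, circles are slide 1 and triangles slide 2. The groups overlap in every panel, and newborn 1 and newborn 6, highest of the newborn arrays in PPARG, differ from newborn 2 and newborn 3, highest in PPARGC1A probe a.

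PPARA, the receptor of fatty acid oxidation in heart muscle, was the dimmest member, at 1.36 to 2.35 times the background. Its relative signal was 0.195 to 0.287, with a median of 0.231, in newborn ventricles, against 0.264 to 0.321, with a median of 0.280, in fetal ventricles. The groups overlapped through 2 newborn arrays, since newborn 4 (0.285) and newborn 7 (0.287) lay within the fetal range and the other 5 lay under every fetal array. The log2 mean was -2.05 ± 0.20 in newborn ventricles (SD, n = 7) and -1.82 ± 0.11 in fetal ventricles (SD, n = 6). The difference of -0.23 (SE 0.104, 95% confidence interval -0.45 to -0.01) did not pass (limma adjusted p = 0.119). The exact two-sided permutation p, unadjusted, was 0.0291.

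The size of the PPARA difference moved with the background correction. It was -0.08 and -0.13 with the normexp corrections (array median and each spot) and -0.09 in the authors' deposited matrix. The unnamed probe that shares 25 bases with PPARA gave 0.037 to 0.107 in newborn ventricles and 0.047 to 0.085 in fetal ventricles. It was well above background on 4 newborn and 4 fetal arrays, and its difference was 0.03 (SE 0.217, limma adjusted p = 0.935). Its correlation with PPARA over the 13 arrays was 0.10, a description of arrays that share the group difference.

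PPARGC1A probe c, from a transcript record of its own, had relative signals of 0.571 to 0.822, with a median of 0.675, in newborn ventricles, against 0.663 to 1.18, with a median of 0.884, in fetal ventricles. In the fetal group 5 of 6 arrays lay above every newborn array, and fetal 5 (0.663) was the exception. The log2 mean was -0.56 ± 0.18 in newborn ventricles (SD, n = 7) and -0.16 ± 0.28 in fetal ventricles (SD, n = 6). Probe c fell by 0.40 (SE 0.130, 95% confidence interval -0.68 to -0.13, limma adjusted p = 0.0378), with an exact two-sided permutation p, unadjusted, of 0.0128.

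Probe a, the brightest of PPARGC1A, had relative signals of 0.758 to 1.37, with a median of 0.947, in newborn ventricles, against 0.994 to 1.72, with a median of 1.33, in fetal ventricles. The newborn arrays 2 and 3 (1.23 and 1.37) lay well inside the fetal range, and 4 of 7 newborn arrays lay under every fetal array. Its difference of -0.41 (SE 0.169, 95% confidence interval -0.77 to -0.05) was as large as that of probe c but did not pass (limma adjusted p = 0.0942), and its spread was wider. Probe b, which overlaps it, gave 0.682 to 1.17 in newborn ventricles and 0.823 to 1.44 in fetal ventricles, with a difference of -0.34 (SE 0.160, limma adjusted p = 0.137). The mean of the 3 probes gave -0.38 (SE 0.147, limma adjusted p = 0.0732).

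Array by array, the 3 probes of PPARGC1A varied together, with r = 0.97 between a and b, 0.86 between a and c and 0.87 between b and c over the 13 arrays. After each group's mean was taken away, these were 0.97, 0.79 and 0.83. PPARG had a lower r with each of them, at 0.25 with a, 0.25 with b and 0.50 with c, and -0.20, -0.14 and 0.08 after the group means were taken away. Its r with PPARA was 0.15, and -0.41 after the group means were taken away. PPARA and probe a had an r of 0.37, and 0.04 after the group means were taken away. These are descriptions over 13 arrays that share the scaling of each array and, before removal of the means, the group difference.

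**Figure D2:**
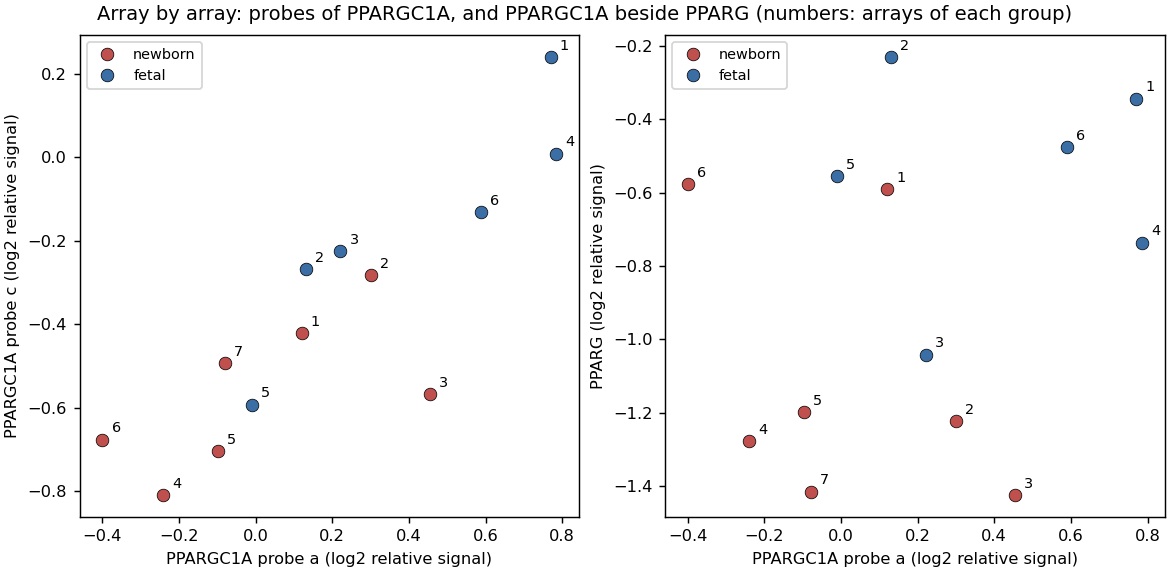
Log2 relative signal of PPARGC1A probe c (left) and of PPARG (right) against that of PPARGC1A probe a, with 1 numbered point for each newborn and fetal array. The left panel runs along a line, with r = 0.86, and the right panel is scattered, with r = 0.25. Newborn 6 is the lowest newborn array for probe a and the highest for PPARG.

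The slides held both groups, with 3 newborn and 4 fetal arrays on slide 1 and 4 newborn and 2 fetal arrays on slide 2. PPARGC1A probe a lay at 0.758 to 0.947 in the newborn arrays of slide 2, against 1.09 to 1.37 in those of slide 1, with no overlap. Over both groups slide 2 minus slide 1 was -0.36 for probe a, -0.33 for probe b and -0.27 for probe c on the log2 scale. These had unadjusted limma p of 0.032, 0.039 and 0.038 and an adjusted p of 0.905 each, and 0 of all tested probes passed for slide (533 had an unadjusted limma p under 0.05). With slide as a block the PPARGC1A differences were -0.32, -0.26 and -0.34 for probes a, b and c, and probe c no longer passed (limma adjusted p = 0.0560).

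Within slide 1 the newborn minus fetal difference was -0.18, -0.14 and -0.36 for probes a, b and c, and within slide 2 it was -0.49, -0.41 and -0.31. PPARG gave -0.49 within slide 1 and -0.60 within slide 2, and -0.54 with slide as a block (limma adjusted p = 0.0541). PPARA gave -0.31 within slide 1 and -0.11 within slide 2. Every one of these values was below 0, and none passed within a slide, where 356 probes passed on slide 1 and 23 on slide 2. Without newborn 6 probe c fell by 0.38 (limma adjusted p = 0.0467). Its call was lost without any 1 of fetal 1, 2, 3, 4 and 6 or newborn 3, 4, 5 and 7, at differences of -0.42 to -0.32 and limma adjusted p from 0.0504 to 0.0781.

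**Figure D3:**
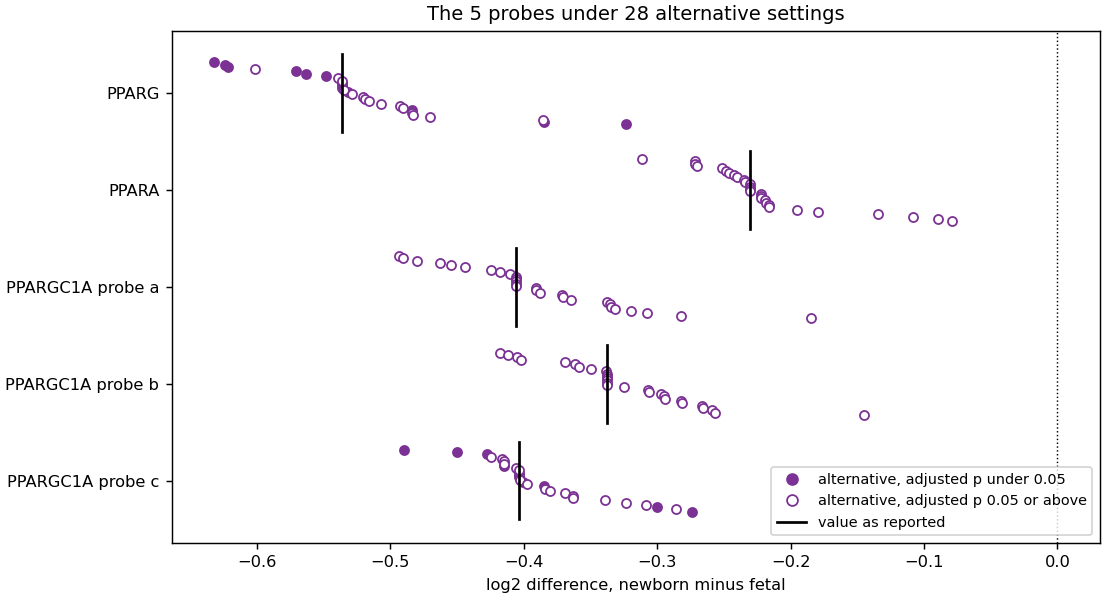
Newborn minus fetal log2 difference of each probe under 28 alternative settings, 13 of which leave out an array, with filled points for an adjusted p under 0.05 and a black line for the value reported. Every point lies below 0. PPARG passed in 13 of 28 settings, probe c in 11 of 28, and PPARA and probes a and b in 0 of 28.

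Sex, which was uneven between the groups, passed for no member. The difference of female minus male, with age in the model, was 0.11 for PPARG (95% confidence interval -0.28 to 0.51), 0.02 for PPARA (-0.22 to 0.26) and -0.14 for PPARGC1A probe a (-0.52 to 0.23), each with a limma adjusted p of 0.999. Of all tested probes 1, or 0.00975%, passed for sex. The product of age and sex was tested as well, and 0 of 10255 probes (0%) passed in limma, while 507 had an unadjusted p under 0.05. For PPARG this interaction, the age difference in females minus that in males, was -0.36 (95% confidence interval -1.16 to 0.44, limma adjusted p = 0.986).

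The other genes of the pathway were listed by role, and a gene with several probes was counted by its brightest one. The retinoid X receptors and PPARD, 4 genes in all, had no named probe, and no unnamed probe was assigned to them here. Of 21 coactivators, corepressors and regulators of PPARGC1A, 1 had a named probe: PRKAA2, a catalytic subunit of the AMP-activated kinase that phosphorylates PPARGC1A. PRKAA2 had relative signals of 0.896 to 1.40 in newborn ventricles and 1.10 to 1.56 in fetal ventricles, a difference of -0.25 that did not pass (limma adjusted p = 0.132).

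Of 14 partner receptors and factors of mitochondrial transcription, 6 had a named probe and 4 could be tested. Of these 4, 1 fell and 0 rose, beside 11.1% of all tested probes that passed as lower and 12% as higher in newborn ventricles. The fall was in YY1, a zinc finger factor that works with PPARGC1A on mitochondrial genes in skeletal muscle of mice. YY1 lay at 5.51 to 6.39 in newborn ventricles, against 6.95 to 7.68 in fetal ventricles, with every newborn array below every fetal array, and fell by 0.33 (SE 0.074, limma adjusted p = 0.00674). Its other probe fell by 0.30 (limma adjusted p = 0.012). The YY1 call was lost with the replicate block (-0.31, limma adjusted p = 0.0534), within each slide and with normexp of each spot. The differences of the others that were tested did not pass: GABPA, the DNA-binding subunit of a nuclear respiratory factor, at 0.03, the thyroid hormone receptor THRB at -0.04 and the glucocorticoid receptor NR3C1 at -0.16. The sign for GABPA and for THRB turned under some settings, GABPA with the normexp correction of each spot, within slide 1 and without newborn 5, and THRB with the normexp correction by the array median and without fetal 1 or newborn 3. NRF1 was well above background on 1 newborn and 2 fetal arrays and THRA on 0 of 13, and neither was tested.

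Of 30 genes known to respond to PPAR receptors, 9 had a named probe and 7 could be tested, of which 4 rose, 1 fell and 2 did not pass. Their median difference was 0.50, beside 0.03 over all tested probes, of which 12% passed as higher in newborn ventricles. SLC25A20, the carrier of acylcarnitines into mitochondria, lay at 0.528 to 0.744 in newborn ventricles, against 0.237 to 0.314 in fetal ventricles, with no overlap (limma adjusted p = 2.7e-05), as 3.37% of probes had. SCD, which desaturates fatty acids, lay at 0.372 to 0.683 in newborn ventricles, against 0.162 to 0.367 in fetal ventricles, also with no overlap. The SCD difference was 1.00 (SE 0.195, limma adjusted p = 0.0034). PLIN5, which coats lipid droplets in heart muscle, lay at 0.334 to 0.489 in newborn ventricles and 0.209 to 0.360 in fetal ventricles, and rose by 0.44 (SE 0.135, limma adjusted p = 0.0296).

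The PLIN5 call was lost without any 1 of fetal 1, 2 and 6 or newborn 4, 5 and 7 (limma adjusted p up to 0.0609). It was also lost with slide as a block, within each slide, with no filter on dim probes, with normexp of each spot, and in models that added sex, the animal number or the replicate number, so that it passed in 14 of 28 settings. CPT1A, which starts the entry of fatty acids into mitochondria, spanned 0.540 to 2.75 in newborn ventricles and 0.250 to 0.627 in fetal ventricles. The CPT1A difference was 1.83 (SE 0.345, limma adjusted p = 0.00291). The fall was in LPL, which frees fatty acids from circulating triglyceride, at 5.34 to 7.32 in newborn ventricles and 6.55 to 10.1 in fetal ventricles. The LPL difference was -0.46 (SE 0.121, limma adjusted p = 0.0154). PLIN2, another droplet protein, gave 0.50 (SE 0.273, limma adjusted p = 0.2). CPT1B, a separate gene for the muscle form of the same enzyme, gave 0.33 (limma adjusted p = 0.0932). The other CPT1B probe, which is not counted, was higher in newborn ventricles by 0.35 and passed (limma adjusted p = 0.0439). FABP4 and UCP3 were well above background on 1 and 2 newborn arrays and on 0 fetal arrays, and were not tested.

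**Figure D4:**
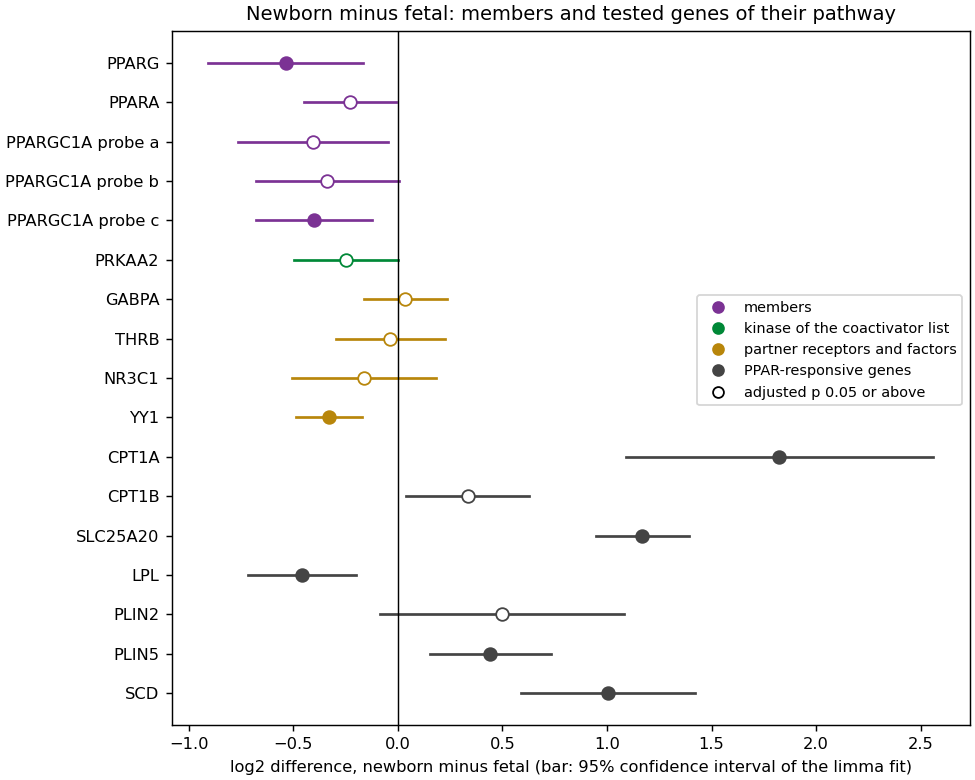
Newborn minus fetal log2 difference (points) with the 95% confidence interval of the limma fit (bars) for the 5 member probes and the 12 tested genes of the pathway, filled where the adjusted p was under 0.05. All 5 member probes lie below 0, as do PRKAA2, THRB, NR3C1, YY1 and LPL, of which YY1 and LPL have filled points. CPT1A, SLC25A20, SCD and PLIN5 lie above 0 with filled points, and GABPA, CPT1B and PLIN2 with open points.

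The genes most like each member over the 13 arrays were sought among 553 named genes by Pearson's r, as a description. PPARG was most like CDKN1B, an inhibitor of the cell cycle (r = 0.86), SPA17, a sperm surface protein (r = 0.85), and GGTA1, a galactosyltransferase (r = 0.84). After the group means were taken away it was most like SPA17 (r = 0.82), DYNLT3, a dynein light chain (r = 0.80), and CDKN1B (r = 0.78). PPARA was most like the growth factors FGF18 (r = 0.69) and IGF2 (r = 0.65) and GGTA1 (r = 0.62), and without group means most like SLC25A10 (r = 0.73) and SLC25A4 (r = 0.69), both mitochondrial carriers, and TALDO1 of the pentose phosphate pathway (r = 0.68).

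PPARGC1A probe a was most like HK1, the hexokinase that starts glycolysis (r = 0.84), VEGFA, the vascular growth factor (r = 0.78), and IL13RA1, a cytokine receptor chain (r = 0.76). Without group means its nearest genes were DERL1 of protein quality control in the endoplasmic reticulum (r = 0.82), UBQLN1, a ubiquitin receptor (r = 0.81), and SCD (r = 0.81). The r with SCD was picked as among the highest. Slide, by which probe a differed by -0.36 (slide 2 minus slide 1), was not taken away. The group differences of SCD and probe a ran in opposite directions, 1.00 for SCD (limma adjusted p = 0.0034) and -0.41 for probe a.

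In tissue pieces, fewer cells of a type and less RNA per cell cannot be told apart. Of 13 cardiomyocyte markers only myoglobin (MB) had a named probe, at 260 to 555 in newborn ventricles and 426 to 589 in fetal ventricles (limma adjusted p = 0.139). Of 7 adipocyte markers, 2 were tested and did not pass, PLIN1 at 0.11 and LEP at 0.12, and FABP4 was well above background on 1 newborn and 0 fetal arrays. The summed level of the adipocyte markers was 0.489 to 0.623 in newborn and 0.421 to 0.725 in fetal ventricles. All 3 tested endothelial markers of 6 fell by their brightest probes (PECAM1, KDR and FLT1), beside 11.1% of all tested probes that passed as lower. Of the 4 KDR probes, 1 did not pass (limma adjusted p = 0.067), and of the 3 FLT1 probes only 1 was tested. The summed level of the endothelial markers was 3.78 to 6.22 in newborn and 5.58 to 7.08 in fetal ventricles.

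Among other cell types, 2 tested T cell markers of 4 and 2 tested erythroid markers of 3 fell. CD3D of the T cell and AHSP of the erythroid markers were well above background on 2 newborn and 5 fetal arrays each. The 2 tested macrophage markers of 6 rose, as did the 1 tested smooth muscle marker of 4. Of 3 tested fibroblast markers 1 fell, COL3A1 by its brightest probe (limma adjusted p = 0.0469) and not by its other 2 probes (0.143 and 0.374). These calls stand beside 11.1% of all tested probes that passed as lower and 12% as higher in newborn ventricles. The summed levels in newborn against fetal ventricles were 0.042 to 0.157 against 0.207 to 0.591 for T cells, 25.4 to 68.6 against 53.7 to 258 for erythroid cells and 0.930 to 1.93 against 0.699 to 1.01 for macrophages. They were 9.81 to 84.0 against 3.63 to 7.17 for smooth muscle and 28.6 to 74.8 against 43.7 to 64.8 for fibroblasts. TNNC2, the tested skeletal muscle marker, varied from 0.729 to 39.3 among newborn and from 0.606 to 14.3 among fetal ventricles. The part of these cell types in the differences of PPARG, PPARA and PPARGC1A was not tested.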

How the data were processed

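Single-colour Agilent arrays of left ventricle RNA were compared for 7 newborn lambs and 6 fetuses. Per the file headers, the scanner output deposited holds an intensity for each spot, made with Agilent Feature Extraction 10.1.1.1, and the processed signal used had its background subtracted, with no normalization between arrays. The authors' deposited matrix holds, judged from its values, log2 signals of 7041 probes, all 5 members among them. How it was normalized is not given in the sources, and it served as an alternative.

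The log2 processed signal minus the log2 of each array's 75th percentile over non-control spots was analysed. Outlier spots were dropped and spots of a probe averaged. Probes well above background on at least 6 arrays were tested (10255 of 15008) with limma 3.58.1 in R 4.3.3 (lmFit, eBayes, two-sided), with Benjamini-Hochberg adjustment over all of them and a threshold of 0.05. Only the limma fit was tested on simulated data, with arrays drawn as independent, and the earlier steps were not. Of the 15008 probes, 1382 had a single gene name, from the files' names and RefSeq identifiers looked up in the RefSeq gene table (assembly ARS-UI_Ramb_v3.0), 14 matched several genes, 8 had conflicting names and 13604 none. The files give no genome position, so none is printed. Files were read with the data.table package, version 1.17.8, and the rest was done in Python 3.11.15 with pandas 2.3.3, numpy 2.4.6, scipy 1.17.1 and matplotlib 3.10.9.

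The members, gene lists and tests were chosen with earlier results of these data known. Named are every member probe, every gene of 4 pathway lists with a tested probe, and, for each member's brightest probe, the 3 most correlated named genes with and without the group means. Genes outside that rule are cell type markers. The labels do not say whether replicates with a number come from pairs of animals: same-numbered arrays had deviations correlated at -0.07 to 0.05, so the numbers were not taken to pair the groups. The alternatives were normexp (offset 50), quantile normalization, the matrix, other filters, a robust and trended eBayes, models with slide, sex, replicate number or animal number, and leaving out each array. Precision is limited by how many arrays there are. The main p-values measure the spread between these animals taken as independent, although 9 of the 13 share 4 animal numbers. With the number as a random block the correlation within a number was 0.18.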

Additional observations from a re-analysis of the deposited data

Results flagged for a closer look

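In YY1, the array fetal 5 was low, at a relative signal of 6.95, where the nearest fetal array had 7.44 and the highest 7.68. On the log2 scale the gap took up 0.683 of the range of the 6 fetal arrays, above Dixon's 95% critical value of 0.625. Of 34 combinations of a probe and a group that were checked, this was the 1 that stood out. Dixon's test by itself marks about 1 in 20 such groups by chance.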

How the results depend on the processing

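All 5 member probes were below 0 under all 28 alternatives, and PPARA and PPARGC1A probes a and b passed under none. PPARG lost its call under 6 of 15 settings that keep all arrays of the comparison or of a slide: normexp of each spot (-0.39, adjusted p = 0.439), no filter on dim probes (-0.54, adjusted p = 0.0672), slide as a block (-0.54), slide 1 alone (-0.49), slide 2 alone (-0.60) and a random block for the animal number (-0.53, adjusted p = 0.0705). Under the same settings probe c lost its call at -0.29, -0.40, -0.34, -0.36, -0.31 and -0.41, and also with sex as a covariate (-0.38, adjusted p = 0.0649) and with the replicate block (-0.42, adjusted p = 0.0708). With the replicate block PPARG was -0.48 (adjusted p = 0.047), and newborn 7, whose number no fetal array shares, then adds nothing. The block moved the count of passing probes to 1326, against 2366, and 1 fetal array correlated best with the newborn array of its own number. The count was 48 with normexp of each spot, 356 in slide 1, 23 in slide 2 and 1727 to 3116 with an array left out, highest without newborn 6. Leaving out 1 array gave -0.63 to -0.47 for PPARG and -0.49 to -0.32 for probe c, and each passed in 4 of 13 cases. The sex difference turned sign for probe c with slide as a block (0.0144) and for PPARA with normexp by the array median (-0.00602), and ranged over -0.0219 to 0.0762 for PPARA with an array left out. The age by sex interaction of probe c turned with slide as a block (0.00564). With an array left out it ranged over -0.167 to 0.110 for probe c, -0.341 to 0.133 for probe b and -0.369 to 0.118 for probe a, and 0 to 2 probes passed. GABPA turned with normexp of each spot (-0.049) and in slide 1 (-0.00288) and ranged over -0.00972 to 0.0740 with an array left out, and THRB turned with normexp by the array median (0.00753) and ranged over -0.0781 to 0.0315. Of the 6 passing pathway genes CPT1A, SLC25A20, SCD, LPL and YY1 passed with each array left out and PLIN5 in 7 of 13 cases, and none of the 6 passed with normexp of each spot or in slide 2. In slide 1 LPL, YY1 and PLIN5 did not pass, nor did YY1 and PLIN5 with the replicate block. Slides alone have fewer arrays, and the cause of the other changes was not tested. PPARA was the dimmest member, at 1.36 to 2.35 times the background.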
